A study of Mus musculus with 6 samples.

Results

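The genes described here are 40 genes of cell death, grouped by the step they serve, in the retina of mice that lack photoreceptor cadherin and of wild type mice. They were listed by name, and each was read at the brightest probe set that the platform annotation gives to that gene alone. Of the 40, 37 had such a probe set, out of 18193 genes in all, and these 37 have 94 probe sets. Bax, Ripk1 and Trp53 had none under that rule and are not analysed here.

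The mice were some 4 weeks of age, and 6 single-colour Affymetrix arrays were run on total RNA of retina, 3 of the prCAD knockout and 3 of wild type mice of strain 129. Each array held the pooled retinas of 3 mice, so its spread is one between pools, and no strain is named for the knockout in the sources used here. prCAD is photoreceptor cadherin, the product of Cdhr1, and the submitters describe the knockout as a model of retinal degeneration. The comparison addresses which transcripts differ between mutant and wild type retina. In whole retina, fewer cells of a type and less RNA per cell cannot be told apart.

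Cells can be dismantled along several routes. Death receptors at the surface recruit an adaptor and an initiator caspase. Proteins of the Bcl2 family decide whether the outer mitochondrial membrane opens, and the cytochrome c that then leaks out assembles the apoptosome, which starts a caspase cascade. Other routes are necroptosis, pyroptosis through gasdermin pores, calcium-activated calpains and overactive poly(ADP-ribose) polymerase, and in inherited retinal degenerations photoreceptors are known to die by routes with and without caspases.

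The mutation was visible in the arrays. Cdhr1 read 11.32, 11.36 and 10.98 log2 units in the wild type arrays and 3.94, 4.20 and 4.34 in the mutant arrays, 133-fold lower (limma, adjusted p = 2.18e-05). The rod genes Sag, Gnat1 and Nrl, which mark the labelled tissue, read between 11.85 and 13.45 in every array. Values are deposited on a log2 scale, where 1 unit is a doubling, and the median over all probe sets is 4.76. A difference at a gene near or below that level can be understated, because background makes up part of its signal. Both arrays numbered 3 lay furthest from the others, with a median correlation of 0.979 (wild type) and 0.982 (mutant) against 0.988 to 0.991. Wild type replicate 3 was the lowest array for 14 of the 37 cell death genes and mutant replicate 3 for 11.

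Transcripts of the cell death genes differed little between mutant and wild type retina. None of the 37 passed the test over all probe sets (limma, Benjamini-Hochberg adjusted p of 1.00 for each), beside 0.0165% of all genes. At an unadjusted p under 0.05 there were 3 higher genes, Cflar, Tnfrsf1a and Bmf, which is 8.11% of the 37 beside 2.33% of all genes, and 0 lower ones beside 1.09%. The differences ran from -0.26 for Xiap to 0.39 for Cflar, with a median of 0.07 (quartiles -0.06 and 0.14), while the median over all genes was 0.02. Of the 37 genes 62.2% lay higher in mutant retina, beside 58.4% of all genes. At the brightest probe sets the 95% interval of each of the 37 differences lay between -0.76 and 0.77. This leaves a doubling or a halving of the array signal outside every one of these intervals. For 31 genes the interval also left out a change by 1.5-fold, and the other 6 were Mcl1, Bid, Bmf, Aifm1, Tnfrsf1a and Cflar. Some dimmer probe sets had intervals that included a halving, among them Xiap 1456088_at (-1.42 to -0.10) and Bcl2l11 1456005_a_at (-1.06 to 0.93). Of the 37 genes, 13 had a mean below the overall median and carry the background limit: Bak1, Bid, Bik, Pmaip1, Casp6, Fas, Casp8, Ripk3, Casp1, Casp4, Casp12, Gsdmd and Cast.

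**Figure D1:**
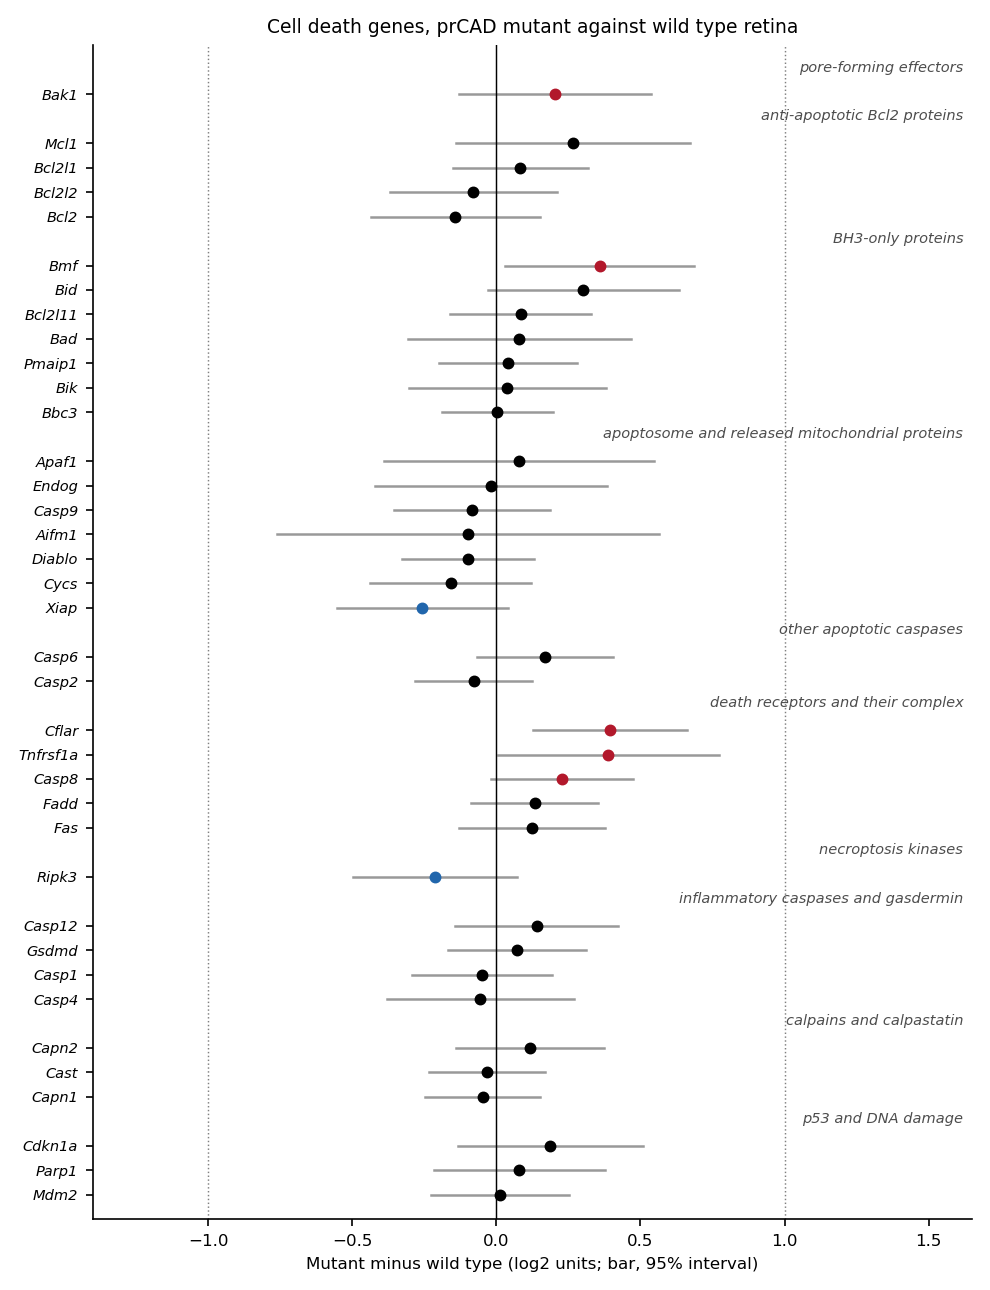
Difference between the means of 3 mutant and 3 wild type arrays (log2 units, x axis) for 37 cell death genes grouped by role, with 95% intervals from limma as bars and dotted lines at a halving and a doubling. Red points mark genes whose 3 mutant values all lie above the 3 wild type values, blue points the reverse, and black points overlapping groups; every bar stays between the dotted lines.

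With the replicate number as a block, 6 genes were higher at an unadjusted p under 0.05, beside 4.88% of all genes: Cflar, Bmf, Tnfrsf1a, Mcl1, Bid and Casp8. Xiap was then the 1 lower gene, beside 2.57%. None of the 37 passed over all probe sets with the block either, the smallest adjusted p being 0.426 (Cflar), while 0.0440% of all genes did. Without the block, the count of 3 higher genes changed when arrays were left out, and so did the share of all genes, 2.33% with every array. Leaving out wild type replicate 3 left 1 gene, Cflar (1.99% of all genes). The same held without mutant replicate 1 (1.64%) or both arrays of replicate 3 (3.82%). Leaving out wild type replicate 2 left Tnfrsf1a and Cflar (2.31%), and leaving out mutant replicate 2 left Bid and Cflar (1.66%). Without wild type replicate 1 (1.82%) or mutant replicate 3 (3.69%) the count stayed at 3, with Bid or Mcl1 in place of Tnfrsf1a.

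The receptor arm held the largest differences, and all 5 of its genes lay higher in mutant retina, with a median of 0.23, in a comparison where 58.4% of all genes lay higher. Cflar encodes a relative of the initiator caspase that blocks its activation at death receptors. At its brightest probe set, 1424996_at, Cflar read 6.11, 5.89 and 5.78 in wild type and 6.41, 6.31 and 6.24 in mutant arrays. Every mutant array lay above every wild type array, by a mean of 0.39 (SE 0.11, limma adjusted p = 1.00, unadjusted p = 0.0104), or 1.31-fold. Arrays paired by replicate number differed by 0.30, 0.42 and 0.46. The other 4 probe sets of Cflar did not share that difference, reading 0.05, 0.002, -0.13 and 0.13, and averaged over its probe sets Cflar differed by 0.09.

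Tnfrsf1a encodes the main receptor for tumour necrosis factor. It read 7.21, 7.31 and 6.71 in wild type and 7.51, 7.49 and 7.41 in mutant arrays. The groups did not overlap, and the low value was wild type replicate 3. The difference was 0.39 (SE 0.16, limma adjusted p = 1.00, unadjusted p = 0.0476), with 0.30, 0.17 and 0.69 within pairs, and 0.21 without wild type replicate 3. Casp8, the initiator caspase that Cflar restrains, read 3.90, 4.07 and 4.07 in wild type and 4.21, 4.14 and 4.37 in mutant arrays. These groups did not overlap either, at a difference of 0.23 (SE 0.10, limma adjusted p = 1.00, unadjusted p = 0.0662) and a level below the overall median. In the RefSeq gene order of GRCm38.p6, Cflar and Casp8 are neighbours with 0 protein-coding genes between them.

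Fadd, the adaptor that joins receptor and caspase, differed by 0.13 (SE 0.09) and Fas, the receptor for Fas ligand, by 0.12 (SE 0.11), both with overlapping groups. Over the 37 genes, 5 had non-overlapping groups with the mutant higher (Bak1, Bmf, Tnfrsf1a, Cflar and Casp8) and 2 with the mutant lower (Xiap and Ripk3), beside 5.89% and 2.88% of all genes. As shares of the 37 these are 13.5% and 5.41%. Across all 3 pairs 12 genes lay higher and 6 lower, or 32.4% and 16.2%, beside 20.0% and 11.4% of all genes.

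**Figure D2:**
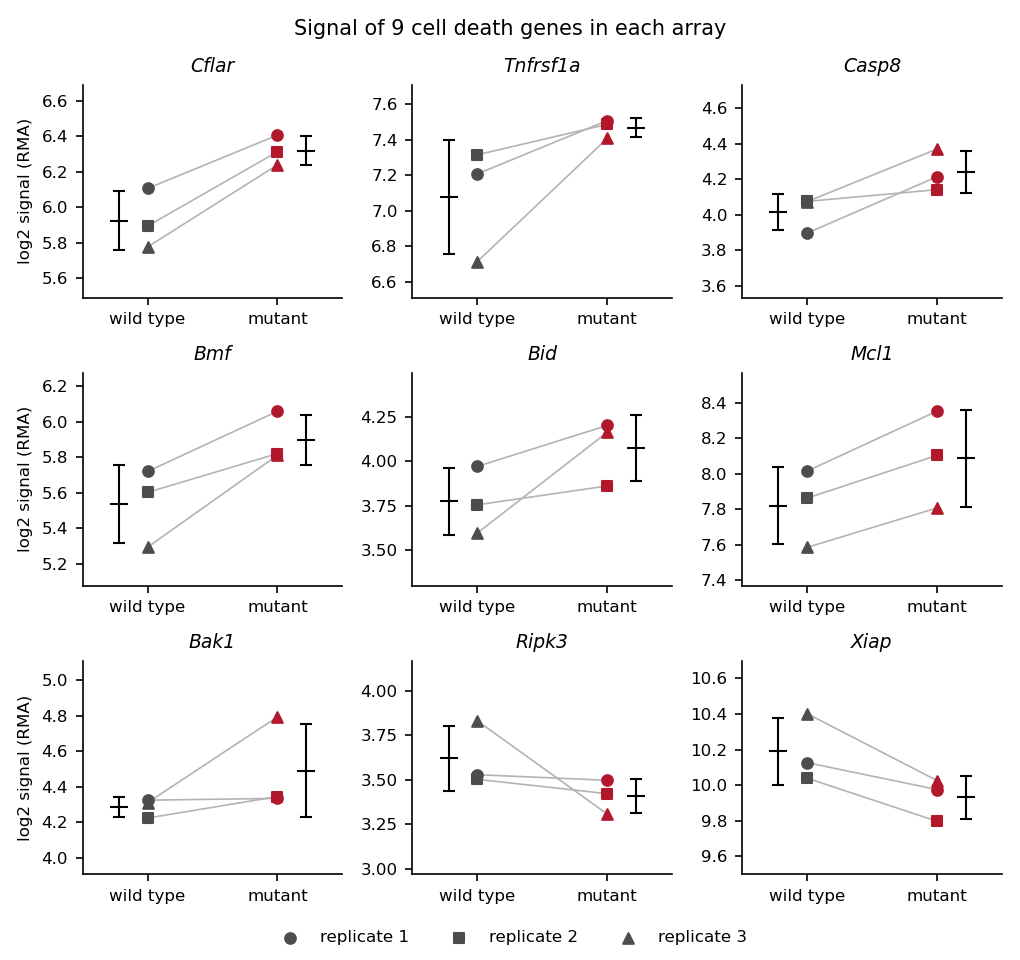
Log2 signal (RMA, y axis) of 9 cell death genes in the 3 wild type arrays (grey) and the 3 mutant arrays (red), with the group mean and SD beside the points. Grey lines join arrays of the same replicate number, and each panel spans 1.2 log2 units; all 9 genes keep their direction in the 3 pairs, and the triangle of replicate 3 is the lowest wild type value of Cflar, Tnfrsf1a, Bmf, Bid and Mcl1 and the highest of Ripk3 and Xiap.

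Markers of other cells moved in the same arrays. The marker lists were chosen with earlier results of these data known, so their counts describe the lists only. Over all genes 58.4% lay higher and 41.6% lower. Of 13 genes listed for reactive Müller glia and astrocytes 13 lay higher in mutant retina, Gfap by 1.60. The largest difference was at Edn2 (3.51), which encodes a secreted ligand and does not itself mark glia. The summed linear signal of the 13 was 1285 to 2117 in wild type and 3363 to 3897 in mutant arrays. With Edn2 in it, this sum is not one of glial RNA alone. Among 15 markers of microglia and macrophages 14 lay higher, at sums of 554 to 581 and 675 to 742, with Aif1, Cx3cr1, Itgam, Ptprc, Cd68 and P2ry12 below the overall median. Of 12 markers of the pigment epithelium 11 lay higher, at sums of 905 to 1828 and 2236 to 3155. Of 10 rod markers 9 lay lower, 7 of them in all 3 pairs, with a median of -0.21 (Prph2 -0.73, Esrrb -0.42), while Sag lay higher by 0.26. The rod sum, carried by the brightest of them, was 29471 to 34355 in wild type and 29913 to 33072 in mutant arrays. None of these genes reads 0, a value that RMA does not give. Their part in the differences of Cflar, Tnfrsf1a, Casp8 and Bmf was not tested.

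Upstream sequence is shown for Tnfrsf1a and Bmf, as members with an unadjusted p under 0.05 whose listed start is the outer end of the gene. Each is the 250 bases before a RefSeq start in GRCm38.p6, 5′ to 3′ on the gene's strand: chr6:125349473-125349722 on the plus strand for Tnfrsf1a and chr2:118549687-118549936 on the minus strand for Bmf. Capitals mark matches on either strand to the NF-kappaB motif (GGG, then any 2 bases, then TTTCC), to TTCNNNGAA (STAT) or to ACGTG (the core of the hypoxia response element).
Tnfrsf1a: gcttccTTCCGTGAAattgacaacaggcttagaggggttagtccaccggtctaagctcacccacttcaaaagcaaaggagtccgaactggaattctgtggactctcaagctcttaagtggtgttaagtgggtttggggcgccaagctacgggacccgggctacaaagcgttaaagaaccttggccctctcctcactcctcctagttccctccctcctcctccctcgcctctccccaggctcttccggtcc
Bmf: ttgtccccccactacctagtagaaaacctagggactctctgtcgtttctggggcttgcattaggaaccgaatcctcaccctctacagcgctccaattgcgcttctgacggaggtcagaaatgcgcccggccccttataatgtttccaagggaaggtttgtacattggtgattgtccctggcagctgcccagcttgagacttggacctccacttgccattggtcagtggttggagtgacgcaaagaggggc
The Tnfrsf1a window holds 1 STAT match and the Bmf window 0 matches to any of the 3 motifs. Of 32851 listed windows of that length 7.02% hold the STAT motif, 1.41% the NF-kappaB motif and 16.6% the hypoxia core. Of the 34 measured cell death genes with a listed window, 4 held the STAT motif (Casp12, Cast, Fas and Tnfrsf1a), 4 the NF-kappaB motif (Bbc3, Bcl2l1, Casp4 and Mcl1) and 11 the hypoxia core. The shares are per window, while a gene was counted if any of its windows held a match. Several genes have more than 1 window, so these counts cannot be set directly against the shares. A match is a description of letters only.

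BH3-only proteins, which sense damage and switch on the pore formers, had a median difference of 0.08. All 7 lay higher in mutant retina, though only 2 did so in all 3 pairs. Under some alternatives of the processing Bad, Bik, Bbc3, Pmaip1 and Bcl2l11 lay lower, at -0.00035 for Bbc3 after median centring of the arrays. A higher value was again the more common direction over all genes, at 58.4%. Bmf encodes a member that is held on the cytoskeleton until cells detach. Bmf read 5.72, 5.60 and 5.29 in wild type and 6.06, 5.82 and 5.81 in mutant arrays, with no overlap and replicate 3 again the lowest wild type value. It differed by 0.36 (SE 0.14, limma adjusted p = 1.00, unadjusted p = 0.0359), or 1.28-fold, and by 0.34, 0.22 and 0.52 within pairs. Its 2 dimmer probe sets differed the same way, by 0.19 (SE 0.13) and 0.33 (SE 0.18). The brightest, 1458325_x_at, is of a kind that can bind transcripts of other genes too, and it differed by 0.24 without wild type replicate 3.

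Bid, which the receptor-bound caspase cleaves to carry the signal to mitochondria, read 3.97, 3.75 and 3.60 in wild type and 4.20, 3.86 and 4.16 in mutant arrays. The groups overlapped through mutant replicate 2, at a difference of 0.30 (SE 0.14, limma adjusted p = 1.00, unadjusted p = 0.0681) and a level below the overall median. The other probe sets of Bid differed by 0.06 and -0.07, and without mutant replicate 1 one of these becomes the brightest, so that the value for Bid was 0.05. Bbc3 and Pmaip1, known targets of p53, differed by 0.003 (SE 0.08) and 0.04 (SE 0.10). Bcl2l11, which encodes Bim, differed by 0.08 (SE 0.10), Bad, a sensor switched off by phosphorylation, by 0.08 (SE 0.16), and Bik, found at the endoplasmic reticulum, by 0.04 (SE 0.14). All of these had overlapping groups.

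The anti-apoptotic genes did not move one way. Mcl1, a short-lived protector, read 8.02, 7.86 and 7.59 in wild type and 8.35, 8.10 and 7.81 in mutant arrays. The groups overlapped, yet each mutant array lay above the wild type array of its number, by 0.34, 0.24 and 0.22, and the mean difference was 0.27 (SE 0.17, limma adjusted p = 1.00, unadjusted p = 0.164). With the replicate block the unadjusted p of Mcl1 was 0.0160 and the adjusted p 0.595. Of its 6 probe sets 5 lay higher in mutant retina, between 0.08 and 0.30, and the sixth differed by -0.03. The brightest, 1437527_x_at, and those at 0.22 and 0.30 are of the kind that can bind transcripts of other genes too. The remaining ones differed by 0.18, 0.08 and -0.03. Bcl2 differed by -0.14 (SE 0.12), Bcl2l1, which encodes Bcl-xL, by 0.08 (SE 0.10), and Bcl2l2, which encodes Bcl-w, by -0.08 (SE 0.12), with overlapping groups in each.

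Bak1, which forms pores in the outer mitochondrial membrane, read 4.33, 4.22 and 4.31 in wild type and 4.34, 4.35 and 4.79 in mutant arrays. The groups did not overlap, but mutant replicates 1 and 2 lay only just above the highest wild type array, and the difference of 0.20 (SE 0.14, limma adjusted p = 1.00, unadjusted p = 0.190) came mainly from mutant replicate 3. Its second probe set differed by 0.04 (SE 0.10).

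**Figure D3:**
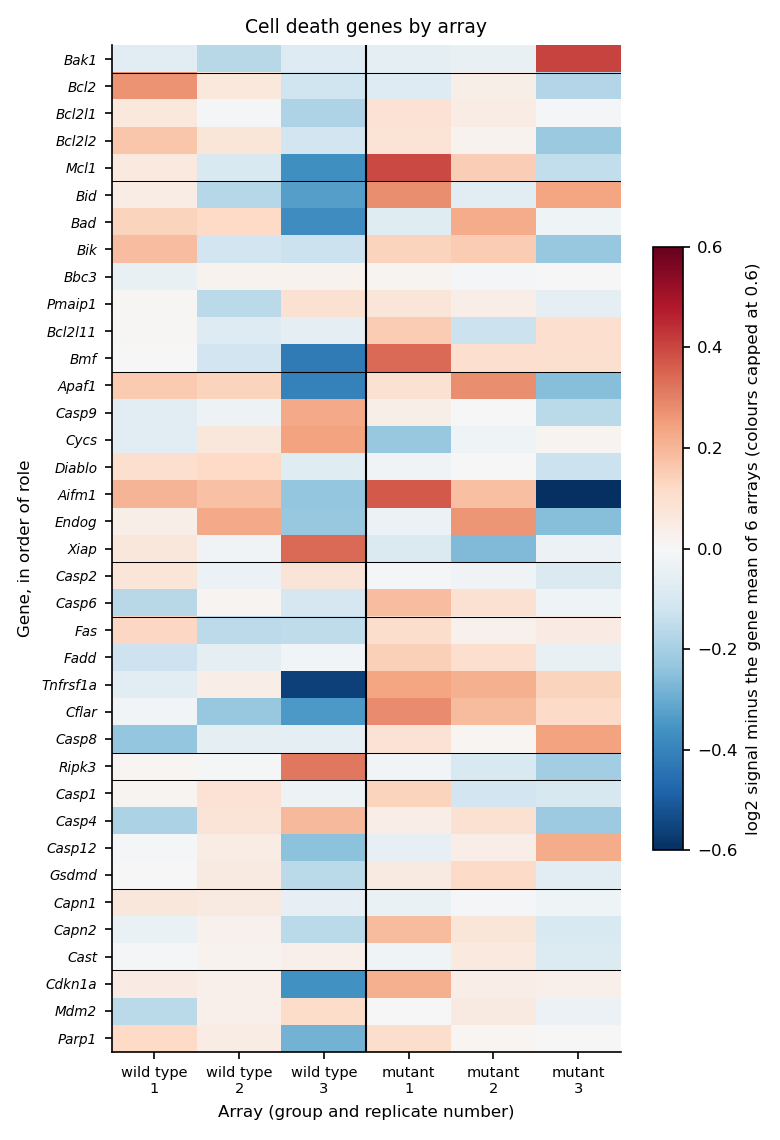
Log2 signal of 37 cell death genes (rows, in order of role, black lines between roles) in 6 arrays (columns), as the deviation from each gene's mean over the arrays; colours are capped at 0.6. Wild type replicate 3 holds the lowest value of 14 genes and mutant replicate 3 of 11, and the rows of Tnfrsf1a, Cflar and Casp8 are blue or pale in wild type and red or pale in mutant arrays.

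Downstream of the mitochondria 6 of 7 genes lay lower in mutant retina, with a median of -0.10, beside 41.6% of all genes. Only 3 of the 7 lay lower in all 3 pairs, and Casp9, Aifm1 and Endog turned higher under some alternatives of the processing. Xiap encodes an inhibitor that binds and blocks caspases. It read 10.13, 10.04 and 10.40 in wild type and 9.97, 9.80 and 10.03 in mutant arrays at its brightest probe set, 1437533_at. The groups did not overlap, with mutant replicate 3 only just below wild type replicate 2. The difference was -0.26 (SE 0.13, limma adjusted p = 1.00, unadjusted p = 0.0802, or 0.0245 with the replicate block), and -0.15, -0.24 and -0.38 within pairs.

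The 7 probe sets of Xiap did not read alike. The next brightest, 1456088_at, read 8.40, 8.05 and 8.43 in wild type and 7.38, 7.05 and 8.17 in mutant arrays. It differed by -0.76 (SE 0.28, limma adjusted p = 1.00, and 0.426 with the replicate block), lower in all 3 pairs, and the groups overlapped through mutant replicate 3, which lay within the wild type range. Probe set 1421394_a_at ranged more widely, at 5.18, 3.62 and 5.93 in wild type and 3.27, 2.99 and 5.65 in mutant arrays, so that arrays of 1 group differed by over 2 log2 units. Probe sets 1450231_a_at and 1426636_a_at were likewise highest in the replicate 3 array of each group, and differed by -0.84 (SE 0.75) and -0.63 (SE 0.44). Each of these 3 was lower in all 3 pairs, and with the replicate block the unadjusted p was 0.0170 for 1421394_a_at, 0.0118 for 1426636_a_at and 0.0581 for 1450231_a_at, with limma adjusted p of 0.597, 0.578 and 0.658. The dim probe sets 1453385_at and 1450232_at differed by 0.18 and 0.06. These values were singled out after they were seen.

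Among the other genes of this step, Cycs, cytochrome c itself, differed by -0.16 (SE 0.12) and lay lower in all 3 pairs. Diablo, which relieves caspases of Xiap, differed by -0.10 (SE 0.10), lower in all 3 pairs as well. Casp9, the caspase of the apoptosome, differed by -0.08 (SE 0.12), Apaf1, its scaffold, by 0.08 (SE 0.20), and the mitochondrial nuclease gene Endog by -0.02 (SE 0.17). Aifm1, whose product leaves mitochondria for the nucleus in caspase-independent death, had the widest interval, -0.76 to 0.56. It read 6.69, 6.67 and 6.25 in wild type and 6.85, 6.67 and 5.79 in mutant arrays, low in replicate 3 of each group, and the difference turned from -0.10 to 0.22 without mutant replicate 3.

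Of the other caspases of apoptosis, Casp6, an effector, read 4.52, 4.70 and 4.59 in wild type and 4.88, 4.78 and 4.67 in mutant arrays. It differed by 0.17 (SE 0.10, limma adjusted p = 1.00) and lay higher in all 3 pairs, with overlapping groups and a level below the overall median. Casp2, an initiator, differed by -0.08 (SE 0.09). Neither passed at an unadjusted p under 0.05.

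**Figure D4:**
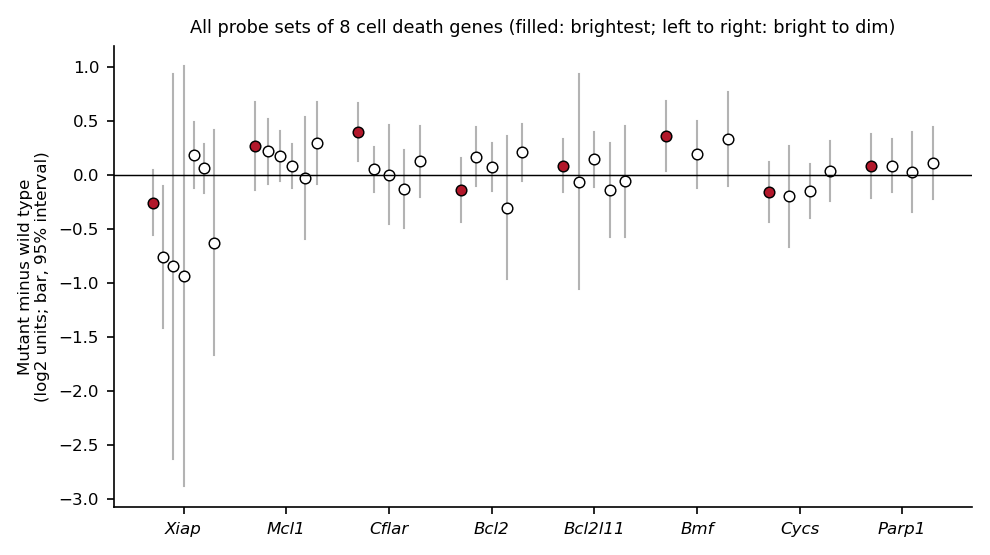
Difference between mutant and wild type means (log2 units, y axis) with 95% limma intervals for all probe sets of 8 cell death genes, ordered within a gene from bright to dim, with the brightest filled in red. The probe sets of Xiap spread from -0.94 to 0.18, while those of Bmf lie above 0 and those of Cflar near 0 but for the brightest.

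Of the 25 cell death genes with more than 1 probe set, 15 had probe sets on both sides of 0, 8 lay higher at all of them and 2 lower at all. Over all 94 probe sets 0 passed the test (limma, adjusted p of 1.00 for each, and 0.426 or more with the replicate block), while 4 were higher and 1 lower at an unadjusted p under 0.05, beside 1.68% and 1.34% of all probe sets. With the replicate block 11 were higher and 6 lower at that level, beside 3.77% and 3.83%. Without the block the 5 were probe sets of Cflar, Tnfrsf1a, Bmf and Xiap and a dim probe set of Capn1, at 0.27 (SE 0.11), whose brightest probe set differed by -0.05.

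Among the 37 genes, those of lytic and inflammatory death read low, Ripk3 with a mean of 3.51 below the overall median. Ripk3, the kinase that starts necroptosis, read 3.53, 3.50 and 3.83 in wild type and 3.50, 3.42 and 3.31 in mutant arrays, and the difference of -0.21 (SE 0.12, limma adjusted p = 1.00, unadjusted p = 0.119) came mainly from the pair of replicate 3 (-0.53). The 4 inflammatory genes were all below the overall median. Casp12, a relative of the inflammatory caspases, read 3.43, 3.49 and 3.20 in wild type and 3.39, 3.48 and 3.66 in mutant arrays. The groups overlapped and differed by 0.14 (SE 0.12, limma adjusted p = 1.00), with -0.04, -0.01 and 0.47 within pairs, and by -0.02 without both arrays of replicate 3. Gsdmd, whose cleaved product forms the pyroptotic pore, differed by 0.07 (SE 0.10), Casp1, the inflammasome protease, by -0.05 (SE 0.10), and Casp4, which senses bacterial lipopolysaccharide, by -0.06 (SE 0.14).

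Calpains are proteases switched on by calcium, and calpastatin is their inhibitor. Capn2 read 5.67, 5.74 and 5.55 in wild type and 5.90, 5.78 and 5.62 in mutant arrays, overlapping, at a difference of 0.12 (SE 0.11, interval -0.14 to 0.37). Capn1 differed by -0.05 (SE 0.08) and Cast, which encodes calpastatin, by -0.03 (SE 0.09). The 3 intervals together ran from -0.25 to 0.37.

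In the p53 and DNA damage group, Cdkn1a, the cell cycle inhibitor that p53 induces, read 5.78, 5.76 and 5.36 in wild type and 5.94, 5.76 and 5.76 in mutant arrays. The groups overlapped, wild type replicate 3 was lowest, and the difference was 0.19 (SE 0.14, limma adjusted p = 1.00, unadjusted p = 0.210), or 0.05 without that array. Mdm2, the ubiquitin ligase that removes p53, differed by 0.01 (SE 0.10), and Parp1, the polymerase that marks DNA breaks, by 0.08 (SE 0.13).

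A further list of 70 cell death genes outside the 40 gives the surroundings, and 65 of them had a singly named probe set. Of the 65, 0 passed over all probe sets (limma, with or without the replicate block), and at an unadjusted p under 0.05 there were 2 higher and 1 lower, beside 2.33% and 1.09% of all genes. Their median difference was 0.07. Gadd45b, a stress-induced gene that NF-kappaB and other signals switch on, read 5.78, 5.83 and 5.62 in wild type and 6.34, 6.33 and 6.25 in mutant arrays. Every mutant array lay above every wild type array, and the means differed by 0.56 (SE 0.10, limma adjusted p = 0.538, unadjusted p = 5.94e-04), or 1.48-fold. A dimmer probe set of Gadd45b, 1449773_s_at, differed by 0.83 (SE 0.20, limma adjusted p = 0.9999) and the remaining one by 0.05. With the replicate block the SE of 1449773_s_at was 0.079 and its limma adjusted p 0.0633.

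Bnip3, a mitochondrial relative of the BH3-only proteins that drives mitophagy and is known to be induced by low oxygen, lay the other way. It read 9.80, 9.83 and 9.61 in wild type and 9.24, 9.25 and 9.17 in mutant arrays, with no overlap. The difference of -0.53 (SE 0.10, limma adjusted p = 0.589, unadjusted p = 8.74e-04) makes Bnip3 1.45-fold lower, and within pairs it was -0.56, -0.59 and -0.45. Ltbr, the lymphotoxin beta receptor, read 5.74, 5.89 and 5.70 in wild type and 6.08, 6.18 and 5.90 in mutant arrays, higher by 0.28 (SE 0.11, limma adjusted p = 1.00, unadjusted p = 0.0387) without overlap. In RefSeq gene order Ltbr and Tnfrsf1a have 1 protein-coding gene between them.

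With the replicate block 4 of the 65 were higher at an unadjusted p under 0.05, Gadd45b, Ltbr, Phlda3 and Ctsd, and 1 was lower, Bnip3, beside 4.88% and 2.57% of all genes. Groups did not overlap for 10 genes with the mutant higher, or 15.4% beside 5.89% of all genes, and for 2 with the mutant lower, Bnip3 and Traf2, beside 2.88%. Among 17 genes listed as targets and regulators of p53, 13 lay higher and 4 lower with a median of 0.13, or 76.5% higher beside 58.4% of all genes. Across the 3 pairs 7 lay higher, 1 lower and 9 both ways. The list includes Gadd45b, which other signals also switch on, and a part of p53 was not tested. Phlda3, a p53 target that restrains Akt, differed by 0.22 (SE 0.11), with an unadjusted limma p that was under 0.05 only with the block, and Ccng1, another target, by -0.37 (SE 0.25). Of 11 further receptors, ligands and adaptors 8 lay higher, among them Tradd, the adaptor of Tnfrsf1a, at 0.15 (SE 0.09). In the inhibitor of apoptosis list Birc3 and Birc5 had non-overlapping groups at 0.16 each, both below the overall median. Mlkl, the executioner of necroptosis, differed by 0.16 (SE 0.11) and Nlrp3, an inflammasome sensor, by 0.15 (SE 0.10). Pycard, the inflammasome adaptor, differed by 0.48 (SE 0.36), with a mutant replicate 3 at 5.47 above every other array and 0.06, -0.26 and 1.63 within pairs. Gsdme, another gasdermin, differed by -0.21 (SE 0.34), and its pairs ran both ways, at -1.08, -0.16 and 0.61.

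**Figure D5:**
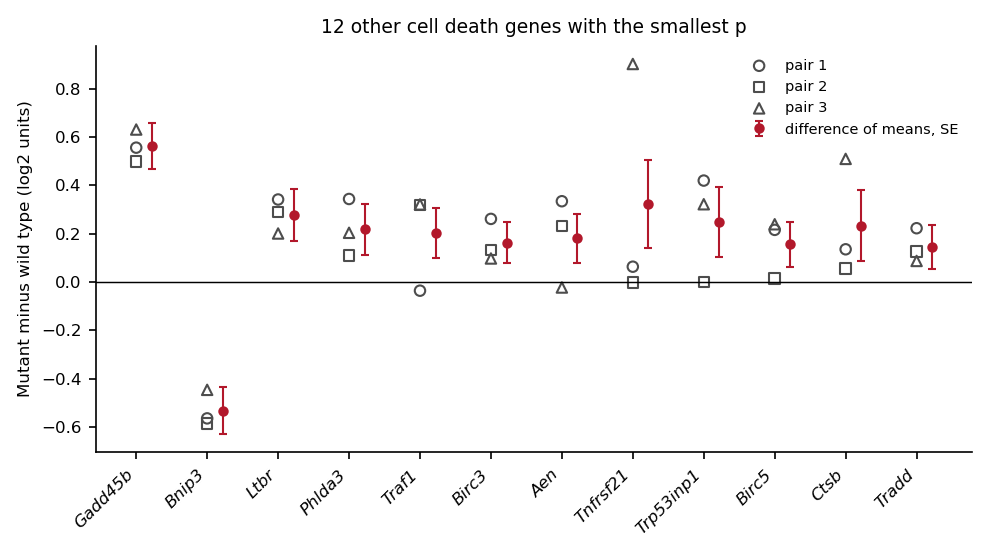
Difference between mutant and wild type (log2 units, y axis) for the 12 genes with the smallest p among 65 further cell death genes: open symbols give the 3 pairs of same-numbered arrays, and red points with bars the difference of means and its SE. Gadd45b lies at 0.56 and Bnip3 at -0.53 with their 3 pairs close together, while Tnfrsf21 rests on pair 3.

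The same upstream windows are shown for the 3 further genes with an unadjusted p under 0.05, with capitals as above: chr10:80929841-80930090 on the plus strand for Gadd45b, chr7:138909507-138909756 on the minus strand for Bnip3 and chr6:125313886-125314135 on the minus strand for Ltbr (RefSeq, GRCm38.p6).
Gadd45b: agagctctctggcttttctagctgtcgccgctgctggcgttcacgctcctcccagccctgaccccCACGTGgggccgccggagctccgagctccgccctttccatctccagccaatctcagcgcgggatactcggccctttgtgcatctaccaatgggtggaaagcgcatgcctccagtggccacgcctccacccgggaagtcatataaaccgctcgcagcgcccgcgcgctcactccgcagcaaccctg
Bnip3: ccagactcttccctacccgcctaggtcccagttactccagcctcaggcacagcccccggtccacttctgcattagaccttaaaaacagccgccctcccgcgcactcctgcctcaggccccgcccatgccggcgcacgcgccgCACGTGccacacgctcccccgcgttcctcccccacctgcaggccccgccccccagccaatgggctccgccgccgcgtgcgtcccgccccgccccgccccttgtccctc
Ltbr: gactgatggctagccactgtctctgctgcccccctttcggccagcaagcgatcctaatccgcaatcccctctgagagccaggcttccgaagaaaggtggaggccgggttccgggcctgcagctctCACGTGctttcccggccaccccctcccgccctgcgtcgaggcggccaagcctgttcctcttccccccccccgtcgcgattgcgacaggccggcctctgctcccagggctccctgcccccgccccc
Each holds CACGTG, in which the hypoxia core reads on both strands, and none of the 3 holds the STAT or NF-kappaB letters. Bnip3 lay lower in mutant retina and Gadd45b and Ltbr higher, and a part of the shared letters in these differences was not tested. Of 54 genes of the further list with a listed window 10 held the core in any of their windows.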

How the data were processed

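The authors deposited log2 values, 1 per probe set and array, that per the submitters' processing notes were made with RMA (no version named); RMA levels the arrays to a common distribution, so a change in total RNA is not visible. RNA came from Trizol and RNeasy extraction with biotin labelling, per the labels' protocols. The build is not stated in the sources used here. Of 45101 deposited probe sets 64 manufacturer controls were left out. Of the rest 34945 have 1 gene symbol in the platform annotation, 932 several and 9160 none.

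Groups followed the titles. The test was limma 3.58.1 (R 4.3.3) on group alone, adjusted by Benjamini-Hochberg over 45037 probe sets, with a threshold of 0.05; an exact permutation test of 3 against 3 cannot go below 0.1. Intervals are 95% and cover the spread between arrays, which are few. Arrays with the same number deviated together (correlations of 0.477, 0.469 and 0.563 over probe sets), so the number was used as pairing, which no label states. The block is given where it changes a count. On simulated data, with 200 of 45037 probe sets changed, adjusted p-values found 2.00% of those that differed by 0.5 log2 units, 62.0% at 1, 93.6% at 2 and 98.4% at 3. The simulated arrays varied independently, unlike the real arrays of the same number, so the rates on the real arrays can differ.

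The members, the further list and the marker lists were chosen with earlier results of these data known. Each member is named, in full where its unadjusted p was under 0.05, its groups did not overlap or it had the smallest p of its role, and further list genes mainly by p; Capn1, the dimmer probe sets and other further genes were chosen after their values were seen. Alternatives were the replicate block, 2 scalings, a filter on dim probe sets, array weights, a trended and robust eBayes, other choices of probe set and leaving out arrays. Windows came from RefSeq starts in GRCm38.p6. Figures used matplotlib 3.10.9.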

Additional observations from a re-analysis of the deposited data

How the results depend on the processing

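No cell death gene passed the adjusted threshold under any of 15 alternatives, the lowest limma adjusted p being 0.312 (Cflar, array weights). No gene of the further list passed either. Of that list the adjusted p was kept for Gadd45b, Bnip3 and Ltbr only, and the lowest of these was 0.0723 (Bnip3, array weights). The 5 genes of the receptor arm lay higher in each alternative that measured all 5. At unadjusted p under 0.05 the replicate block, which pairs arrays by number, gave 6 higher and 1 lower (4.88% and 2.57% of all genes), array weights 4 higher and 1 lower (5.61% and 3.31%), and the omission of both arrays of replicate 3 (chosen after seeing the data) 1 higher (3.82%). Leaving out single arrays gave 1 to 3 higher (1.64% to 3.69%). The median difference was 0.045 with dim probe sets left out, 0.040 with probe sets averaged and 0.010 to 0.10 with single arrays left out. The block changed no call after adjustment. Of the 37 measured members 19 kept their sign throughout, as did Gadd45b, Bnip3 and Ltbr, and 45 of 587 values for these 40 genes turned sign, in 18 members; none of these had passed a test, and the cause was not tested. Median centring turned Bbc3 (-0.00035). Array weights turned Bbc3 (-0.0022), Bcl2l11 (-0.016), Casp9 (0.011), Endog (0.062), Casp4 (0.070), Cast (0.019) and Parp1 (-0.011). Averaging probe sets turned Bcl2 (0.0013), Bcl2l1 (-0.030), Bcl2l2 (0.097), Bad (-0.0021), Bcl2l11 (-0.0076), Endog (0.021), Capn1 (0.11) and Mdm2 (-0.0066). Without both arrays of replicate 3 it was Bad (-0.052), Casp9 (0.067), Aifm1 (0.082), Casp4 (0.12), Casp12 (-0.023), Cast (0.010) and Parp1 (-0.025). With single arrays left out the differences ran as follows: Bcl2l2 -0.16 to 0.0098, Bad -0.086 to 0.17, Bik -0.027 to 0.16, Bbc3 -0.019 to 0.014, Pmaip1 -0.030 to 0.096, Apaf1 -0.11 to 0.22, Casp9 -0.14 to 0.0072, Aifm1 -0.31 to 0.22, Endog -0.16 to 0.10, Casp4 -0.16 to 0.040, Cast -0.069 to 0.0021, Mdm2 -0.065 to 0.070 and Parp1 -0.043 to 0.16. Signal near background limits the 13 genes below the overall median, and 3 arrays a group limit all of them.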

Other observations

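Probe sets that the annotation gives to several genes were left out of the lists above. Those of Bnip3l, a mitophagy receptor related to Bnip3, and its pseudogene differed by -0.15 (SE 0.12), -0.05 (SE 0.11) and -0.17 (SE 0.16). Those shared by the Bcl2a1 copies, anti-apoptotic genes of blood cells, read between 2.77 and 3.53 in all arrays and differed by 0.01, 0.07 and 0.12.

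Markers of retinal ganglion cells, the output neurons, lay lower in mutant retina at 8 of 9 measured genes, beside 41.6% of all genes. Their median was -0.32, and their summed linear signal was 2231 to 3317 in wild type and 1994 to 2555 in mutant arrays. Lens markers, at sums of 13422 to 36089 and 26000 to 40059, were lowest in wild type replicate 3 and highest in mutant replicate 3.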
